A study of Mus musculus with 1024 samples.

Results

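The genes described here are 10 transcription factors of the endothelial lineage, *Erg*, *Fli1*, *Ets1*, *Ets2*, *Sox7*, *Sox18*, *Tal1*, *Gata2*, *Mef2c* and *Epas1*, read in single cells sorted from the mouse aorta. They were listed by name as known regulators of endothelial cells (ECs), and all 10 were among the 24422 genes of the count table. Cells came from the aortae of 12 mice aged 3 months, 6 wild type (WT) and 6 with *amotl2* inactivated in the endothelium (KO, amotl2ec−/ec−), in 2 separate cell preparations. Viable Cd45− cells were sorted singly as Cd31+ (labelled Endothelial) or Cd31− (labelled DoubleNegative), and each well was sequenced by the full-length Smart-seq2 method. The wells of both genotypes carry the same strain label, Amotl2flow/flow with Cdh5-RREert and ROSA26-EYFP. The amotl2 flox/flox mice, on a C57BL/6 background, had been crossed to carry a tamoxifen-inducible Cre under the *Cdh5* promoter and an EYFP reporter of Cre activity, so that inactivation is driven in ECs and not in the Cd31− cells. The labels tie no well to a mouse, mice of a group were pooled within a preparation, and a preparation is therefore the only replicate, with n = 2 for each genotype and gate.

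ERG, FLI1, ETS1 and ETS2 belong to the ETS family, whose DNA-binding domain recognises a GGAA core found in the enhancers and promoters of most endothelial genes. SOX7, SOX18 and their relative SOX17 form the SoxF group, which acts in arterial, venous and lymphatic specification, while TAL1 and GATA2 bind DNA together with LMO2 in the complex that directs both blood and endothelial progenitors. MEF2C is a MADS-box factor of muscle and endothelium that is held in check by class IIa histone deacetylases, and EPAS1, also called HIF-2α, is the oxygen-regulated subunit of a hypoxia-inducible factor that is abundant in endothelium.

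Of 1024 wells, 784 had at least 20000 gene counts and at least 500 genes and were kept. In the order WT preparation 1, WT preparation 2, KO preparation 1 and KO preparation 2, they comprised 235, 50, 302 and 89 Cd31+ wells and 42, 12, 40 and 14 Cd31− wells. Counts were summed within each of these 8 combinations, giving between 8470943 and 94881185 gene counts for the Cd31+ sums and between 926398 and 9435015 for the Cd31− sums. Levels are given as CPM, the counts of a gene scaled to a common total of gene counts per sum. In such sums, fewer cells of a type and less RNA per cell cannot be told apart. The labels were checked with defining markers. *Pecam1*, which encodes Cd31, stood at 7145 to 8591 CPM in the Cd31+ sums and at 5.09 to 503 CPM in the Cd31− sums, and *Ptprc*, which encodes Cd45, gave 1 count in all kept wells. The 9 smooth muscle markers summed to 738 to 1685 CPM in the Cd31+ sums and 21229 to 53853 CPM in the Cd31− sums, and the 9 fibroblast markers to 492 to 962 CPM and 6114 to 44926 CPM. *EYFP* was found in 1.70% and 4.0% of the Cd31+ wells of the WT preparations and in 76.5% and 85.4% of those of the KO preparations. *Amotl2* stood at 59.9 and 94.0 CPM in the WT Cd31+ sums and at 51.9 and 45.7 CPM in the KO Cd31+ sums, with a log2 difference of −0.66 (edgeR, adjusted p = 0.9995), and counts per gene do not resolve the floxed exons.

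One Cd31− well of WT preparation 2 went against its gate, lying in an endothelial-like cluster with endothelial markers at 32665 CPM. With 38635 gene counts it held 480 counts of *Pecam1* and 38 of *Cdh5*, VE-cadherin. It also held 17 counts of *Fli1*, 27 of *Sox7*, 29 of *Sox18*, 1 of *Gata2* and 80 of *Epas1*. The differences and specificities of these 5 factors are given with and without it.

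The first comparison asked which of the factors separated the endothelial gate from the other cells of the vessel wall. *Gata2*, *Tal1*, *Sox18*, *Sox7*, *Fli1*, *Epas1* and *Erg* were higher in Cd31+ sums, *Mef2c* was lower, and *Ets1* and *Ets2* did not pass the test. Thus 7 of 10 factors were called higher where 9.79% of all 12729 genes tested were, and 1 of 10 was called lower where 9.25% of all genes were (edgeR quasi-likelihood test with Benjamini-Hochberg adjustment over all genes tested). The same 7 factors had every Cd31+ sum above every Cd31− sum, an order shown by 17.3% of all genes tested. The median log2 difference over the 10 factors was 4.06, compared with 0.15 over all genes tested. The factors were listed as known regulators of ECs, with earlier results of these data known. Their excess over all genes therefore describes the list and is no separate evidence.

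**Figure D1:**
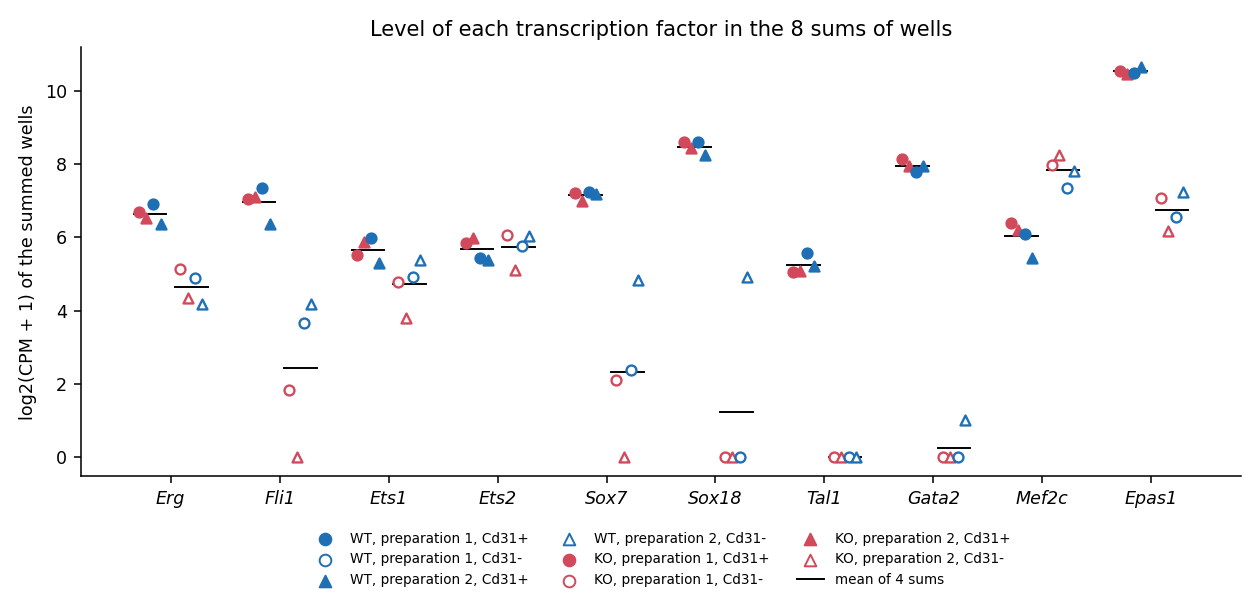
Each point is the level of 1 of the 10 factors in 1 of the 8 sums, as log2(CPM + 1), for the 4 Cd31+ sums and the 4 Cd31− sums. The sums of the gates lie apart for every factor but *Ets1* and *Ets2*, and *Mef2c* is the factor with its Cd31− sums, at 164 to 305 CPM, above its Cd31+ sums, at 42.2 to 83.6 CPM.

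Among the ETS factors, *Erg* (chr16:95359169-95586593, minus strand, GRCm38 coordinates throughout) encodes a factor that maintains *Cdh5* transcription and junctional stability in mature ECs. Its Cd31+ levels were 120 and 81.9 CPM in the WT preparations and 102 and 91.8 CPM in the KO preparations, and its Cd31− levels were 28.9, 17.2, 34.4 and 19.4 CPM in the same order. The gates did not overlap, but no Cd31− sum was at 0. The mean was 99.0 ± 16.3 CPM in Cd31+ sums and 25.0 ± 8.09 CPM in Cd31− sums (SD, n = 4 each), a log2 difference of 1.85 with a standard error of 0.34 (edgeR, adjusted p = 0.00645). *Fli1* (chr9:32422204-32542861, minus strand), the closest relative of *Erg*, encodes a factor shared by endothelial, megakaryocytic and other blood cells. It stood at 161, 81.9, 131 and 136 CPM in the Cd31+ sums and at 11.6, 17.2, 2.54 and 0 CPM in the Cd31− sums. Its gates lay further apart than those of *Erg*, with a log2 difference of 4.52 and a standard error of 0.52 (edgeR, adjusted p = 0.000625). Without the Cd31− well in the endothelial-like cluster the difference was 5.01, and without the KO Cd31− sum of preparation 1, which leaves a KO sum at 0, the fitted value was 8.84.

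*Ets1* and *Ets2* behaved otherwise. *Ets1* (chr9:32636221-32757820, plus strand) lies next to *Fli1* on the chromosome and encodes a broadly expressed factor induced in angiogenic endothelium. It was counted at 62.3, 38.3, 44.6 and 58.2 CPM in the Cd31+ sums and at 29.2, 40.5, 26.7 and 12.95 CPM in the Cd31− sums. The gates overlapped, since the Cd31− sum of WT preparation 2 lay above the Cd31+ sum of the same suspension. The log2 difference was 0.84, with a 95% interval of −0.03 to 1.70 (edgeR, adjusted p = 0.177). With every well thinned to 20000 counts it was 1.41 and passed the test (edgeR, adjusted p = 0.0159), while over all alternatives the adjusted p ranged from 0.0159 to 0.486. *Ets2* (chr16:95702075-95721051, plus strand), a neighbour of *Erg*, encodes a Ras-responsive factor found in many cell types. It was at 42.2, 40.9, 57.1 and 62.9 CPM in the Cd31+ sums and at 53.7, 64.8, 66.2 and 33.5 CPM in the Cd31− sums, so that the gates overlapped. The log2 difference of −0.23 had an interval of −0.96 to 0.49 (edgeR, adjusted p = 0.681).

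The SoxF factors were near or at 0 in most Cd31− sums. *Sox7* (chr14:63943673-63950732, plus strand) stood at 150, 144, 147 and 127 CPM in the Cd31+ sums, with the lowest spread of the 10 factors relative to its mean (142 ± 10.6 CPM, SD, n = 4) apart from *Epas1*. Its Cd31− levels were 4.22, 27.3, 3.29 and 0 CPM, the highest being the WT sum that holds the well described above. The log2 difference was 4.50 with a standard error of 0.68 (edgeR, adjusted p = 0.00251). It was 5.63 without that well, and 9.0, a fitted value against a KO sum at 0, without the KO Cd31− sum of preparation 1. *Sox18* (chr2:181669836-181671640, minus strand), mutated in hypotrichosis-lymphedema-telangiectasia syndrome, was counted at 392, 305, 387 and 345 CPM in the Cd31+ sums. In the Cd31− sums it was at 0 apart from 29.4 CPM in WT preparation 2, which came from that single well. Over the pooled wells the ratio of CPM was 236, and *Sox18* passed the test (edgeR, adjusted p = 0.00799). The counting interval of this ratio, 164 to 352, takes the reads of that well as independent and leaves out the spread between wells. Without the well all Cd31− sums were at 0, and the ratio against 3 counts over the group was at least 2274-fold. *Sox17*, the third SoxF factor and a regulator of arterial identity, was at 122, 161, 180 and 177 CPM in the Cd31+ sums and gave no count in any Cd31− well. Its Cd31+ level was therefore at least 978-fold higher.

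*Tal1* and *Gata2* were all but restricted to the Cd31+ gate. *Tal1* (chr4:115056426-115071755, plus strand) encodes the basic helix-loop-helix partner of the pair. Its levels were 47.0, 36.4, 32.2 and 32.7 CPM in the Cd31+ sums, and no count was found in any of the 108 Cd31− wells, which allows a share of up to 2.78% of wells (3 wells, the limit used here for a count of 0, where the exact two-sided 95% interval reaches 3.36%). All 4 Cd31+ sums were thus above all 4 Cd31− sums (edgeR, adjusted p = 0.000672). Over the pooled wells the ratio was at least 218-fold against 3 counts, where the exact two-sided 95% limit is 177-fold. *Gata2* (chr6:88193891-88207032, plus strand), the GATA factor of endothelium and blood stem cells, stood at 221, 248, 283 and 248 CPM in the Cd31+ sums. In the Cd31− sums it gave a single count, again in the well of WT preparation 2. With that count the ratio was 4715, with a counting interval of 846 to 186243 (edgeR, adjusted p = 0.000155). Without the well it was at least 1568-fold against 3 counts over the group. Fitted log2 values for genes with no or few Cd31− counts depend on the prior count of the fit and are not given.

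*Mef2c* (chr13:83504034-83667080, plus strand) was the factor that went the other way. Its Cd31+ levels were 67.4, 42.2, 83.6 and 72.0 CPM, and its Cd31− levels were 164, 223, 254 and 305 CPM. Every Cd31− sum exceeded every Cd31+ sum, with means of 237 ± 59.3 and 66.3 ± 17.4 CPM (SD, n = 4 each). *Mef2c* was lower in Cd31+ sums by a log2 difference of −1.94 with a standard error of 0.28 (edgeR, adjusted p = 0.00207). *Epas1* (chr17:86753700-86833410, plus strand) was the most abundant factor, at 1435, 1622, 1492 and 1414 CPM in the Cd31+ sums, or 1491 ± 93.7 CPM (SD, n = 4). In the Cd31− sums it was at 92.5, 152, 133 and 71.2 CPM, so that the gates lay far apart although no Cd31− sum was at 0. The log2 difference was 3.63 with a standard error of 0.31 (edgeR, adjusted p = 0.000235), and 3.89 without the Cd31− well in the endothelial-like cluster.

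Specificity for the endothelial gate was taken as the mean Cd31+ CPM as a percentage of the mean Cd31+ and mean Cd31− CPM together, so that 50 would mark equal levels. It was 100% for *Tal1* and *Sox17*, 99.9% for *Gata2*, 98.0% for *Sox18*, 94.2% for *Fli1* and *Sox7* and 93.0% for *Epas1*. *Erg* followed at 79.8%, then *Ets1* at 65.0%, *Ets2* at 48.2% and *Mef2c* at 21.9%. Without the Cd31− well in the endothelial-like cluster, *Sox18* and *Gata2* were at 100%, *Sox7* at 98.7%, *Fli1* at 97.3% and *Epas1* at 94.1%, so that the tie of *Fli1* and *Sox7* and the gap between *Sox18* and *Sox7* rested largely on that well. *Erg*, widely used as an endothelial nuclear marker, ranked below *Fli1* with the well and without it (79.7%).

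Levels of different genes were compared only per kilobase of exon. In Cd31+ sums *Epas1* led with 267 ± 16.8 CPM per kb, followed by *Sox18* with 221 ± 25.2 CPM per kb (SD, n = 4 each). *Gata2* (46.3 ± 4.71), *Sox7* (43.1 ± 3.21), *Fli1* (36.6 ± 9.54), *Sox17* (33.5 ± 5.59) and *Erg* (28.5 ± 4.71 CPM per kb) formed a middle group in which neighbours overlapped. *Ets2* (8.79 ± 1.89), *Tal1* (8.47 ± 1.57), *Ets1* (6.00 ± 1.33) and *Mef2c* (4.22 ± 1.11 CPM per kb) were lowest. Between neighbours in this order the sums did not overlap from *Epas1* to *Sox18*, from *Sox18* to *Gata2*, from *Erg* to *Ets2* and from *Tal1* to *Ets1*, whereas all other neighbours overlapped. In Cd31− sums the order began with *Epas1* (20.1), *Mef2c* (15.05), *Ets2* (9.43) and *Erg* (7.21 CPM per kb), and all neighbours overlapped.

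Proximal promoter sequence is shown for factors from both ends of this specificity order. RefSeq promoters on GRCm38.p6 were at hand for 5 of the 10 factors (11 start sites of *Erg*, *Ets2*, *Tal1*, *Gata2* and *Mef2c*), and not for *Fli1*, *Ets1*, *Sox7*, *Sox18* and *Epas1*. The 250 bases before each start were searched on both strands. The motif of ETS factors was taken as CCGGAA and was found in 12.0% of 32851 promoters of the same length. The motif bound by GATA factors was taken as AGATAA and was found in 9.99% of these promoters. The hypoxia response motif was taken as ACGTG and was found in 16.6%, and the MEF2 motif was found in 3.20%. The GATA letters occurred upstream of the first start site of *Tal1* (chr4:115056176-115056425, plus strand, 48.8% GC) and of the third of *Erg* (chr16:95459349-95459598, minus strand, 47.2% GC). None of the 11 windows held the ETS, hypoxia response or MEF2 letters. The E-box bound by TAL1 and other basic helix-loop-helix factors was taken as CANNTG and was found in 66.2% of all promoters. It occurred at 2 places in the *Erg* window named above, at 2 upstream of the first start site of *Mef2c* and at 1 upstream of the third. The SOX motif was taken as ACAAT and was found in 27.7% of all promoters, and it occurred at 1 place in each of the same *Erg* window and the first of *Mef2c*. No matches overlapped. Shown 5′ to 3′ on the gene's strand are the *Tal1* and *Erg* windows with the GATA letters (here as their reverse complement) in capitals, and for comparison those of the first start sites of *Gata2* (chr6:88193641-88193890, plus strand, 67.2% GC) and *Mef2c* (chr13:83503784-83504033, plus strand, 33.6% GC), the factors with nearly all and with the smallest part of their level in the Cd31+ gate.
Tal1: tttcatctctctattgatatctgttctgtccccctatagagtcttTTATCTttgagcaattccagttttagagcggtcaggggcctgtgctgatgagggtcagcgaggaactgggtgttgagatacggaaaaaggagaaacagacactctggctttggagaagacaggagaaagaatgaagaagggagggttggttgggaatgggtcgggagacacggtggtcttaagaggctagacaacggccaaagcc
Erg: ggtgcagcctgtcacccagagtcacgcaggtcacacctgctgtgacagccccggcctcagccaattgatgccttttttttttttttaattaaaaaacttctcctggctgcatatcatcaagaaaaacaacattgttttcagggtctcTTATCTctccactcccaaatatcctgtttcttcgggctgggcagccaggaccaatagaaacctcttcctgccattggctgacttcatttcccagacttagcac
Gata2: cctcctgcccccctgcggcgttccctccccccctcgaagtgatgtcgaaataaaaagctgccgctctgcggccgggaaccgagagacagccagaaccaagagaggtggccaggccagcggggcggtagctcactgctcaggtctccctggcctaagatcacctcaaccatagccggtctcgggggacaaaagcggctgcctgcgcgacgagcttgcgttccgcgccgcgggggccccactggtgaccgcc
Mef2c: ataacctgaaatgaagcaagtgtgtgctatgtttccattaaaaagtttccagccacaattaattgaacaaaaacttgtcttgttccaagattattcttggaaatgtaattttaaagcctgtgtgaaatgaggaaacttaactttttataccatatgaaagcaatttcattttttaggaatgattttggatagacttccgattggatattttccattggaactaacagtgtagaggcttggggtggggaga
A match describes letters in a window and is not a binding site, and counts per gene do not show which start site was used.

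*Epas1*, *Sox18* and *Gata2* were also the factors found in the most Cd31+ wells. *Epas1* was found in 99.9% of 676 Cd31+ wells, *Sox18* in 94.1% and *Gata2* in 92.9%. *Fli1* was found in 80.0%, *Sox7* in 76.6% and *Erg* in 74.0% (95% exact binomial interval 70.5 to 77.2), *Tal1* in 50.9%, *Mef2c* in 49.1%, *Ets2* in 45.3% and *Ets1* in 42.0%. Among the 108 Cd31− wells, *Mef2c* was found in 76.9% (67.8 to 84.4), *Epas1* in 62.0% (52.2 to 71.2) and *Ets2* in 53.7%. *Ets1* was found in 25.9% of these, *Erg* in 22.2% (14.8 to 31.2), *Fli1* in 10.2% and *Sox7* in 6.48%, while *Sox18* and *Gata2* were each found in 1 well. Since wells differ in depth, with medians of 58190 to 252839 counts over the Cd31+ sums, each well was also thinned to 20000 counts. The share for *Erg* was then 58.1% of Cd31+ and 15.7% of Cd31− wells, for *Mef2c* 32.8% and 65.7%, and for *Epas1* 99.6% and 48.1%. The intervals are over pooled wells, which are not replicates, and cover counting error only, and reads without molecular identifiers are not independent molecules. By preparation the share of Cd31+ wells with *Erg* was 75.3% and 86.0% in WT and 68.5% and 82.0% in KO, a spread wider than the pooled interval.

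**Figure D2:**
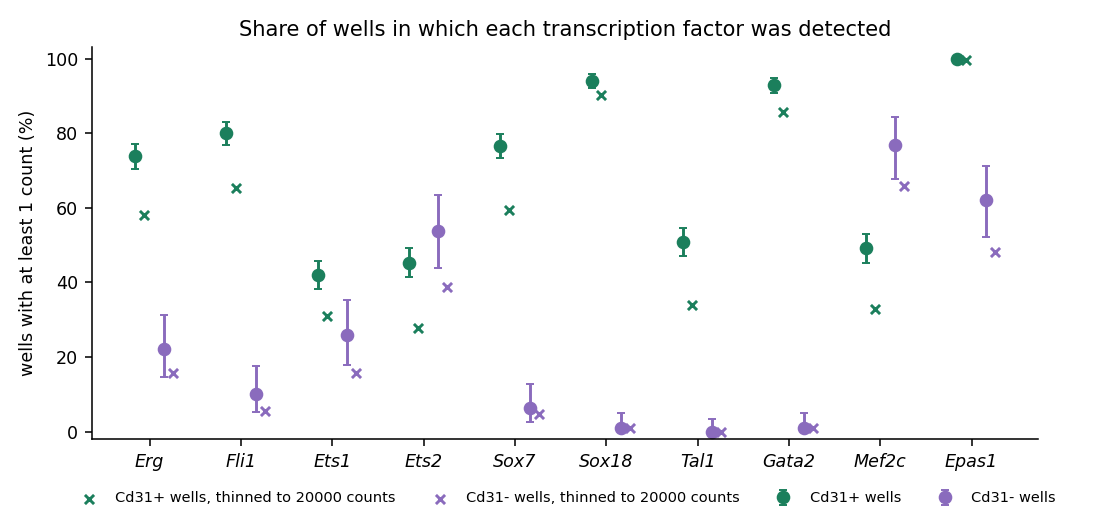
Points give the share of wells with at least 1 count of each factor, in percent with 95% exact binomial intervals, for 676 Cd31+ and 108 Cd31− wells. *Epas1* lies at 99.9% and 62.0%, *Tal1* at 50.9% and 0%, and *Mef2c* at 49.1% and 76.9%.

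A Cd31+ well held on average 7.05 of the 10 factors (range 1 to 10), and a Cd31− well 2.59 (range 0 to 5). At least 6 factors were found in 545 of 676 Cd31+ wells (80.6%) and in 0 of 108 Cd31− wells. After thinning the averages were 5.84 and 1.96. Of the 8 sums, the 4 Cd31+ sums averaged 6.51 to 7.98 factors per well, 5.33 to 6.50 after thinning, and KO preparation 1, which had the fewest genes per well (median 3314), was lowest in both. *Sox18* and *Gata2* were found together in 594 Cd31+ wells, or 87.9%, and in 78.4% of Cd31+ wells after thinning. No Cd31− well other than the one in the endothelial-like cluster held either of them.

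To see which Cd31− cells held the factors, all kept wells were clustered and clusters named from fixed marker lists. Because the clusters were made from all genes, levels between them are descriptions without a test. The 108 Cd31− wells comprised 70 smooth muscle-like wells, 37 fibroblast-like wells and the 1 endothelial-like well. In the smooth muscle-like Cd31− wells *Mef2c* was found in 64 of 70 (91.4%, 310 CPM), *Epas1* in 54 (77.1%, 154 CPM), *Ets2* in 43 (61.4%, 76.2 CPM) and *Erg* in 24 (34.3%, interval 23.3 to 46.6, 48.2 CPM). *Sox7*, *Sox18*, *Tal1*, *Gata2* and the endothelial marker *Cdh5* gave no count in them, which allows up to 4.29% of wells each (exact interval to 5.13%). In the fibroblast-like Cd31− wells *Mef2c* was found in 19 of 37 (51.4%, 68.0 CPM) and *Epas1* in 12 (32.4%, 37.9 CPM), *Sox7* and *Fli1* in 6 each (16.2%), and *Erg* in none, which allows up to 8.11% (exact interval to 9.49%). The 661 endothelial-like wells had *Erg* in 74.6% (104.9 CPM) and *Mef2c* in 48.1% (72.6 CPM). Median depths were 159612 counts in endothelial-like, 112506 in smooth muscle-like and 144368 in fibroblast-like wells.

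All 24 Cd31− wells with *Erg* were thus smooth muscle-like. None of the 24 held a count of *Cdh5* and 4 held *Pecam1*, and their summed endothelial markers had a median of 0 and a maximum of 94.8 CPM, compared with 17399 to 20042 CPM in the Cd31+ sums. *Erg* was found in such wells of every suspension, in 8 of 16 wells of WT preparation 1 (77.5 CPM), 3 of 10 of WT preparation 2 (18.8 CPM), 9 of 31 of KO preparation 1 (44.8 CPM) and 4 of 13 of KO preparation 2 (22.1 CPM). A single well gave 61.5% of the *Erg* counts of KO preparation 1. *Mef2c* was spread more evenly, in 15 of 16, 9 of 10, 28 of 31 and 12 of 13 of these wells at 285, 240, 322 and 348 CPM. The 14 Cd31+ wells in the smooth muscle-like cluster held *Mef2c* in all 14 and *Cdh5* in 8, with *Sox18* in 10 of them at 77.6 CPM, below the 387 CPM of endothelial-like wells. All 14 also held *Pecam1*, at 2456 CPM, and *Acta2*, at 25968 CPM. Whether these wells held more than a single cell was not tested.

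**Figure D3:**
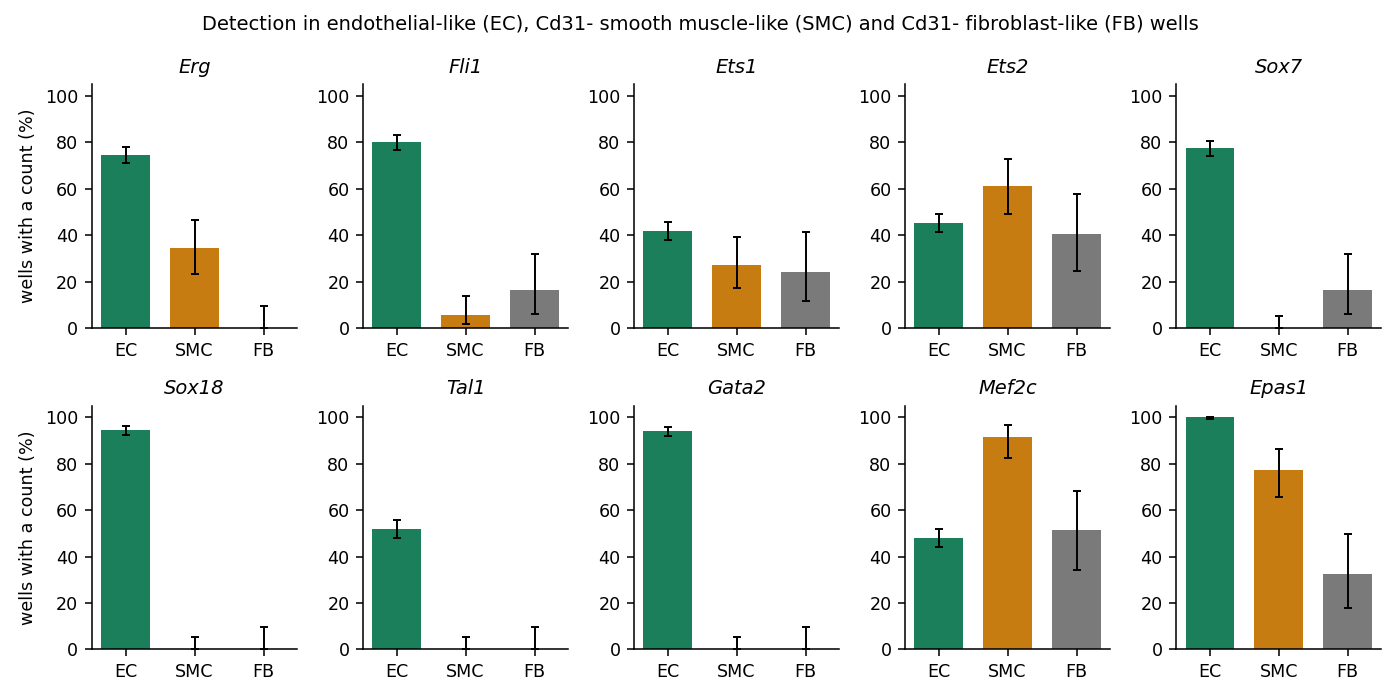
Bars show the share of wells with a count of each factor, in percent with 95% exact binomial intervals, in 661 endothelial-like wells and in the 70 smooth muscle-like and 37 fibroblast-like wells of the Cd31− gate. *Erg* is present in 74.6%, 34.3% and 0% of these, and *Mef2c* is highest in the smooth muscle-like wells at 91.4%.

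The factors also differed among the endothelial-like clusters. The largest, clusters 0, 1 and 2, were led by *Aldh3a1* and *Frzb*, by *Nt5e* and *Gkn3*, and by *Cd74* and other MHC class II genes. Cluster 5 (33 wells) was led by *Lrg1*, *Aqp1*, *Cd36* and *Fabp4*, genes known from microvascular and venous endothelium, and cluster 6 (23 wells) by *Slc6a6*, *Ssu2* and *Hapln1*. Of the 156 wells of cluster 2, 155 came from WT preparation 1, on a single plate, and none from WT preparation 2, so the cluster cannot be told apart from that plate and preparation. Over pooled wells *Sox18* was the most even factor, at 358 to 455 CPM across the 5 clusters. This did not hold within WT preparation 1. There *Sox18* ran from 189 CPM in cluster 0 to 540 CPM in cluster 6, and *Erg* from 93.5 CPM in cluster 5 to 184 CPM in cluster 1. *Epas1* was at 1766, 1194 and 1521 CPM in clusters 0, 1 and 2, 797 CPM in cluster 5 and 1999 CPM in cluster 6. *Gata2* followed the same order of extremes over pooled wells, at 127 CPM in cluster 5 and 415 CPM in cluster 6. For both factors these extremes held in WT preparation 1. In KO preparation 1 *Epas1* was highest in cluster 0, at 1776 CPM, with 1715 CPM in cluster 6. There 63.6% of the *Gata2* counts of cluster 6 came from 1 well.

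Cluster 5 had the highest *Fli1*, at 403 CPM compared with 122 to 156 CPM in the other clusters. Its *Fli1* level was 482 CPM in the 19 wells of WT preparation 1, 307 CPM in the 11 wells of KO preparation 1 and 455 CPM in the 3 wells of KO preparation 2, all above the other clusters' pooled levels. *Mef2c* was at 207 CPM in cluster 5 and 173 CPM in cluster 6, but the order turned between preparations. In WT preparation 1 it was at 161 and 217 CPM, and in KO preparation 1 at 249.7 and 146 CPM, where 57.6% of the cluster 5 counts came from 1 well. The SoxF factor *Sox17* was at 16.6 CPM in cluster 5 and at 567 CPM in cluster 6, the widest range of the factors described. Cluster 6 had the highest *Ets1*, at 257 CPM, with 224 CPM in its 12 wells of WT preparation 1 and 270 CPM in its 9 wells of KO preparation 1. Its *Ets2* level of 240 CPM was uneven, at 45.9 CPM in WT preparation 1 and 351 CPM in KO preparation 1.

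**Figure D4:**
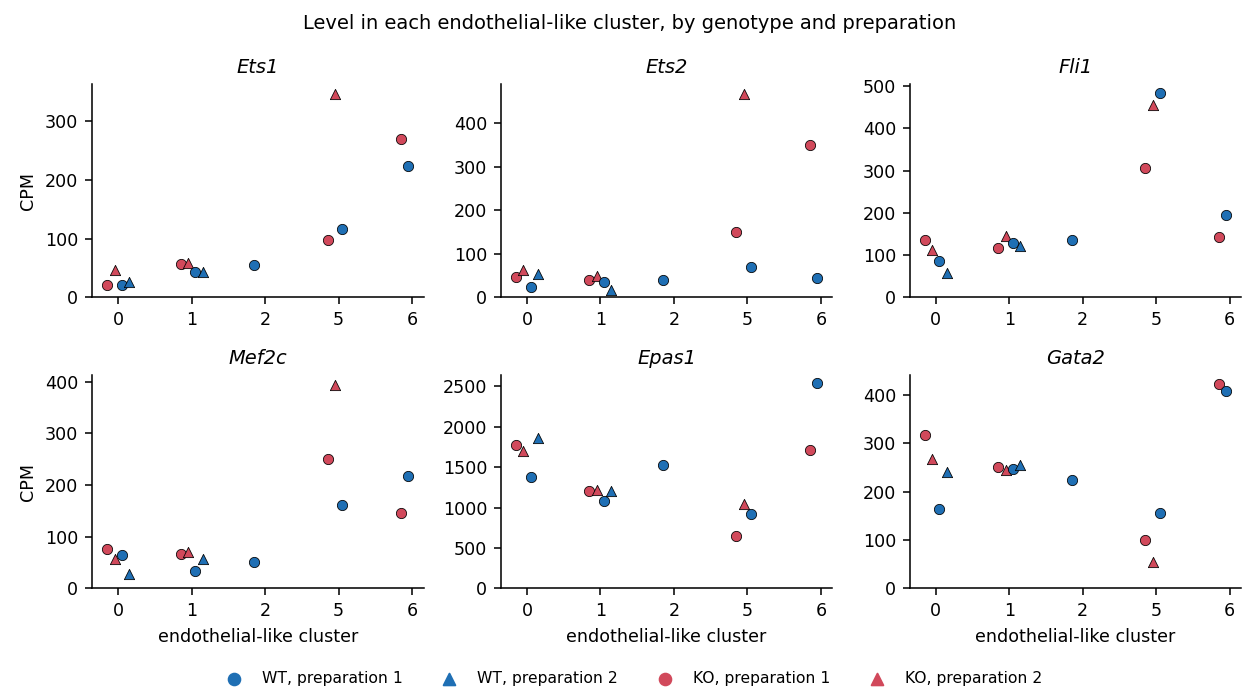
The plot gives the level of *Ets1*, *Ets2*, *Fli1*, *Mef2c*, *Epas1* and *Gata2* in the 5 endothelial-like clusters, in CPM. Each point is a genotype and preparation. Cluster 5 stands out with *Fli1* at 482 CPM in WT preparation 1, 307 CPM in KO preparation 1 and 455 CPM in KO preparation 2.

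Relatives and partners of the factors were examined across the gates. Of all genes tested, 9.79% were called higher in Cd31+ sums and 9.25% lower, and no list was tested as a set. Of 22 other ETS genes 12 were tested, and *Elk3*, a repressor-type ternary complex factor of endothelium, was higher in Cd31+ sums (106 ± 17.4 and 6.64 ± 2.94 CPM, SD, n = 4, log2 difference 3.94, edgeR, adjusted p = 0.000524). *Etv1*, named after its value was seen, was lower (log2 difference −6.22, edgeR, adjusted p = 0.00842), and the other 10, *Elf1* and *Etv6* among them, did not pass. Of 9 other SOX genes tested 2 were higher, *Sox17* and *Sox13*, the latter at 73.8 ± 23.8 and 7.64 ± 5.58 CPM (SD, n = 4, edgeR, adjusted p = 0.00714). Among 14 tested partners of TAL1 and GATA2, 6 were higher and none lower. *Lmo2*, the bridging subunit of the TAL1 and GATA complex, was at 346.2 ± 103.3 and 9.45 ± 4.22 CPM (SD, n = 4, log2 difference 5.13, edgeR, adjusted p = 0.000139). *Cbfa2t3*, a co-repressor of that complex, was at 204 ± 33.2 and 2.90 ± 2.07 CPM (SD, n = 4, log2 difference 5.92, edgeR, adjusted p = 0.000186). The other 4, named after their values were seen, were *Lyl1*, *Gata3*, *Zfpm1* and *Hhex*, and *Gata6* at a log2 difference of 1.76 did not pass (edgeR, adjusted p = 0.0545).

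Among the relatives of MEF2C and the genes listed for the hypoxia pathway, none was called higher in Cd31+ sums. The calls of a lower level are to be read beside the 9.25% of all genes tested that were called lower. Of 6 tested MEF2 factors and class IIa histone deacetylases, *Hdac5* was lower in Cd31+ sums, at 15.6 ± 6.46 and 45.0 ± 13.5 CPM (SD, n = 4, log2 difference −1.64, edgeR, adjusted p = 0.0373). *Mef2a* at a log2 difference of −0.81 and *Hdac7* at 1.43 did not pass (edgeR, adjusted p = 0.0921 and 0.119). Of 7 tested genes listed under the hypoxia-inducible factor pathway none was higher and 2 were lower. These were *Egln1* and *Arntl*, the latter listed beside *Arnt*, and both were named after their values were seen. *Hif1a*, the paralogue of *Epas1*, was at 177 ± 56.3 and 201 ± 73.6 CPM (SD, n = 4, log2 difference −0.30, edgeR, adjusted p = 0.630), and its Cd31+ and Cd31− sums overlapped. By contrast, 26 of 29 endothelial genes listed as targets of these factors were higher in Cd31+ sums, where 9.79% of all genes tested were. Among them were *Vwf*, *Egfl7* and *Cldn5*, and *Pecam1*, which encodes the protein the cells were sorted on. The list shares genes with the endothelial markers, so the count describes the gate and is no separate evidence on the factors. The 3 listed genes not called, named after their values were seen, were *Flt1*, *Cd34* and *Klf4*, for which the log2 differences were 2.56, 0.61 and 1.17 (edgeR, adjusted p = 0.137, 0.529 and 0.101).

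Likeness of pattern was described by Pearson's r of log2(CPM + 1) over the 8 sums, which share gates and libraries, among the genes tested. The sums included the Cd31− well in the endothelial-like cluster, and no r is given without it. The gene most like *Sox18* was *AU021092* (r = 0.9999), followed by *Egfl7*. In the Cd31− gate *Sox18* and *Egfl7* were at 0 apart from the WT sum of preparation 2, at 29.4 and 66.8 CPM. All *Sox18* counts of that sum came from this well, so its high r rests in part on it. The gene most like *Tal1* was *Sdcbp2* (r = 0.9998), followed by *Arhgef15* and *S1pr1*. *Gata2* was most like *Palmd* (r = 0.999), *Epas1* like *Hspa12b* (r = 0.999), *Sox7* like *Plvap* (r = 0.996), *Erg* like *Ica1* (r = 0.996) and *Fli1* like *Timeless* (r = 0.993). *Mef2c* was most like *Ifngr2* (r = 0.995), followed by *Rbpms2* and *Myom1*. For *Ets1* and *Ets2* the highest values were lower, with *Wbp2* (r = 0.973) and *Usp14* (r = 0.962). Within the set the closest pairs were *Tal1* and *Gata2* (r = 0.994) and *Gata2* and *Epas1* (r = 0.992).

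The second comparison asked whether the factors changed in Cd31+ cells when *amotl2* was inactivated. None of the 10 was called between KO and WT, and none had an unadjusted p under 0.05. In this comparison 0% of all 12702 genes tested were called (edgeR quasi-likelihood test), and 468 had an unadjusted p under 0.05. DESeq2 called 37 genes, none of the factors among them. For every factor the adjusted p was 0.9995. The median log2 difference between KO and WT over the factors was 0.07, compared with 0.0025 over all genes tested, and the median size of the difference was 0.13 and 0.32. With 2 preparations per genotype the intervals remain wide, and a p above the threshold does not show equal levels.

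The fitted differences, averaged over preparations, were nearest to 0 for *Erg*, *Ets1*, *Epas1*, *Sox18* and *Sox7*. The log2 difference between KO and WT was −0.05 for *Erg* (95% interval −0.68 to 0.58), −0.07 for *Epas1* (−0.63 to 0.49), 0.08 for *Sox18* (−0.49 to 0.65), −0.10 for *Sox7* (−0.66 to 0.45) and 0.05 for *Ets1* (−0.73 to 0.84), whose preparations differed in opposite directions. For *Fli1* it was 0.15 (−0.60 to 0.90) and for *Gata2* 0.18 (−0.38 to 0.74). The intervals for *Epas1*, *Gata2*, *Sox7*, *Sox18*, *Erg*, *Fli1* and *Ets1* all lay within 1 log2 unit of 0. *Ets2* (0.54, −0.12 to 1.21) and *Mef2c* (0.51, −0.18 to 1.2) had both KO sums above both WT sums, and *Tal1* (−0.35, −1.09 to 0.39) had both KO sums below. These 3 of 10 factors without overlap between genotypes compare with 29.5% of all genes tested.

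**Figure D5:**
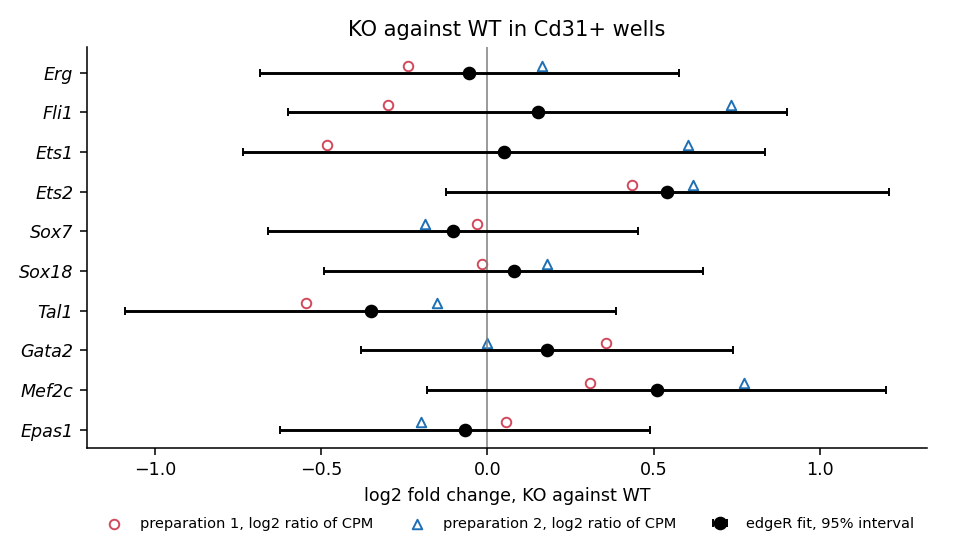
The plot shows the log2 difference between KO and WT in Cd31+ sums for each factor, with its 95% interval from the edgeR fit, beside the difference within preparation 1 and within preparation 2. Every interval includes 0, from *Ets2* at 0.54 to *Tal1* at −0.35.

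Within preparations the differences between KO and WT had the same sign for 4 factors and opposite signs for 6. *Ets2* (log2 ratio 0.44 in preparation 1 and 0.62 in preparation 2) and *Mef2c* (0.31 and 0.77) were higher in KO in both, and *Tal1* (−0.54 and −0.15) and *Sox7* (−0.03 and −0.19) were lower in both. *Fli1* (−0.30 and 0.73) and *Ets1* (−0.48 and 0.60) turned around between preparations. In preparation 1 each genotype had a plate of its own, so the plate and the genotype cannot be told apart there, whereas in preparation 2 they shared a plate. *Erg*, *Sox7* and *Sox18* were higher in preparation 1 than in preparation 2 in both genotypes, 3 of 10 factors where 40.6% of all genes tested differed in either direction without overlap. The smooth muscle and fibroblast markers, 9 each, all had a fitted log2 difference above 0 in KO Cd31+ sums (medians 0.92 and 0.80, none called), and the 10 dissociation-raised genes all had one below 0 (median −0.70, none called). With only Cd31+ wells in endothelial-like clusters the log2 difference was 0.49 for *Mef2c* and 0.58 for *Ets2*, neither called. After thinning it was −0.065 for *Mef2c* and 1.21 for *Ets2*, again not called (edgeR).

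None of the relatives, partners or targets was called between KO and WT. The 29 target genes had a median log2 difference of −0.06, with 11 above 0 and 18 below, and the 14 TAL1 and GATA2 partners a median of −0.003. In the Cd31− sums no gene was called between KO and WT (edgeR quasi-likelihood test), although 1130 had an unadjusted p under 0.05. *Fli1* had a log2 difference of −2.86 there (edgeR, adjusted p = 0.489), and the difference of its genotype effect between the gates did not pass (edgeR, adjusted p = 0.955). All 17 *Fli1* counts of the Cd31− sum of WT preparation 2 came from the well in the endothelial-like cluster, and without it the log2 difference was −1.89 (edgeR, adjusted p = 0.688). The Cd31− sums also differed in make-up, with 26 of 42 wells fibroblast-like in WT preparation 1 and 9 of 40 in KO preparation 1, whose part in the value was not tested.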

How the data were processed

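Single-cell libraries from sorted Cd45− aortic cells were made by the authors with Smart-seq2 and aligned with STAR 2.7.7a to GRCm38 with spike-in and EYFP sequences added. The authors removed duplicate reads with Picard 2.22.0, and the deposited table holds read counts per gene and well from HTSeq 0.9.1. The annotation release is not given in the sources used here. Genes took 51.87% of counts, 92 spike-ins 1.251% and the 5 summary lines of the counter 46.88%, and only genes entered totals and tests. No 2 kept wells were identical.

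Wells with at least 20000 gene counts and 500 genes were kept and summed by gate, genotype and preparation. The preparation is the only replicate named, so p-values measure only the spread between preparations. Gates were compared over 8 sums and genotypes over the 4 Cd31+ sums with the edgeR 4.0.16 quasi-likelihood test (R 4.3.3, TMM scaling, filterByExpr, two-sided, Benjamini-Hochberg threshold 0.05 over all genes tested). The median log2 difference of all genes tested was 0.15 between gates, and the 10 factors kept their calls with RLE scaling. Exact binomial intervals are at 95%, a count of 0 was bounded by 3 counts, and likeness used a pseudocount of 1. Exon lengths and positions are from GENCODE M21 (95.55% of symbols matched), promoters from RefSeq. Clusters were made with Seurat 5.3.0 (log-normalisation, resolution 0.5). Wells were sorted singly and doublets were not called, so a well that held more than 1 cell would not have been found. Tests were tried on simulated data.

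Alternatives were a block for the suspension or preparation, RLE scaling, no count filter, DESeq2 1.42.0, wells with at least 100000 counts, thinning to 20000 counts, clusters with gates, leaving out each sum, and, chosen after seeing the data, leaving out the Cd31− well in the endothelial-like cluster (for the gates, and for genotypes in the Cd31− sums). The gates of a suspension come from the same mice, which pairs them. The deviations of paired sums correlated at r = 0.064 in WT and 0.0408 in KO, and those of the Cd31+ sums of the same preparation at r = 0.147. With the suspension as a block 8 factors were called, as without it. The factors and gene lists were chosen with earlier results of these data known. Named genes were the 10 factors, *Sox17*, defining markers, the 4 listed genes per family with the highest Cd31+ level, and the 3 genes most like each factor.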

Additional observations from a re-analysis of the deposited data

Results flagged for a closer look

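In the Cd31− gate the sum of WT preparation 2 stood apart from the other 3 sums for *Sox7* at 27.3 CPM, for *Sox18* at 29.4 CPM and for *Gata2* at 1.01 CPM. The gap to the nearest sum, as a share of the range, exceeded Dixon's 95% limit for these 3 of 19 groups of 4 sums examined, where chance gives about 1 in 20 groups. For *Sox18* and *Gata2* the other 3 sums were at 0, so that any count would pass, and for *Gata2* the value is 1 count. All the *Sox18*, *Sox7* and *Gata2* counts of that sum came from the 1 Cd31− well in an endothelial-like cluster. The sums of the endothelial markers moved with it, at 1303 CPM in WT preparation 2 and 5.40 to 39.5 CPM in the other Cd31− sums.

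The wells left out for few counts or genes, which entered no comparison, held the factors too. Pooled over 219 left-out Cd31+ wells (1334065 gene counts) and 20 left-out Cd31− wells (157787 gene counts), 8 of 10 factors had a higher CPM in the Cd31+ wells. *Epas1* was at 1043 and 50.7 CPM, *Sox18* at 310 CPM and 0, *Gata2* at 221 CPM and 0 and *Erg* at 72.7 and 6.34 CPM. The exceptions were *Mef2c* at 72.7 and 330 CPM and *Ets2* at 51.0 and 76.1 CPM. These are pooled values of shallow wells without a test.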

How the results depend on the processing

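The number of factors called between gates was 8 under all 16 alternatives except thinning, which called 9, and between KO and WT it was 0 under all 11. With the replicate block for the suspension 8 factors were called between gates and 0 between genotypes, and 1867 and 1 genes. Between gates 2423 genes were called, 1355 to 2542 when a sum was left out (1355, 1399, 1435 and 1496 without KO preparation 2, KO preparation 1, WT preparation 2 and WT preparation 1 of the Cd31+ gate), 2993 without a count filter, 3101 with DESeq2 and 1758 in deep wells. Between KO and WT no gene was called, compared with 1 with the replicate block, with RLE scaling or within endothelial-like clusters, 104 without a filter, 37 with DESeq2, 5 after thinning and 5 to 311 when a sum was left out (5, 35, 311 and 221 without KO preparation 1, KO preparation 2, WT preparation 1 and WT preparation 2). *Ets1* passed between gates after thinning (1.41). *Ets2* between gates ranged from −0.41 to 0.050 when a sum was left out, turning sign without the KO Cd31− sum of preparation 1. Between KO and WT, values turned sign after thinning for *Ets1* (from 0.05 to −0.18), *Mef2c* (from 0.51 to −0.065) and *Epas1* (from −0.07 to 0.016). Leaving out a Cd31+ sum turned *Erg* (−0.28 to 0.22, without WT preparation 1), *Fli1* (−0.24 to 0.69), *Sox18* (−0.071 to 0.24) and *Epas1* (−0.18 to 0.046, these 3 without WT preparation 2) and *Ets1* (−0.26 to 0.41, without WT preparation 2 or KO preparation 2). The cause was not tested. All other values for single factors kept their direction and side of the threshold. Where a sum was left out, the lone sum was assumed to vary like the other groups. Depth limits shares of wells for low factors such as *Tal1*, with a median of 8 counts in the wells that held it.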

Other observations

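Other markers in the sums were low or uneven. Mast cell markers, checked because mast cells also express *Gata2*, were at 0 in the Cd31+ sums for 5 of 6 genes and summed to 0 to 10.2 CPM there. Platelet and red cell markers, checked because those lineages express *Tal1* and *Fli1*, summed to 11.9 to 25.7 CPM in the Cd31+ sums, and leukocyte markers to 3.66 to 11.8 CPM. Lymphatic endothelial markers summed to 21.5 to 74.4 CPM in Cd31+ sums and mesothelial markers to at most 0.472 CPM. Their part in the levels of the factors was not tested.

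*Mef2c* correlated negatively with 8 of the other 9 factors over the 8 sums, from r = −0.937 with *Tal1* to r = −0.731 with *Ets1*, given as a description of sums that share gates and libraries. The Cd31− well in the endothelial-like cluster was included.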
